A study of Mus musculus with 2 samples.

Results

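Serotonin reaches the frontal cortex from raphe neurons of the brainstem and acts there through a family of receptors. Of the receptors described here, all but HTR3A are G-protein-coupled. The HTR1 and HTR5 classes couple mainly to Gi/o proteins and lower cAMP. The HTR2 class couples to Gq/11 and phospholipase C, and HTR4, HTR6 and HTR7 couple to Gs and raise cAMP. HTR3A is the exception, a subunit of a cation channel gated by serotonin, and SLC6A4 is the plasma membrane transporter that takes serotonin back up and the target of selective serotonin reuptake inhibitors. The genes described here are 9 receptor genes (Htr1a, Htr1b, Htr2a, Htr2c, Htr3a, Htr4, Htr5a, Htr6 and Htr7) and the transporter gene Slc6a4, 10 of the 21938 protein-coding genes of the annotation, chosen by name. Each was given the deposited elements within its body and 20 kb to either side.

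Open chromatin was mapped by DNase-seq, which sequences the sites that DNase I cuts in nuclei. There was 1 group with no second condition: frontal cortex of 10-day-old male B6CASTF1/J mice, the F1 of a cross between C57BL/6J and CAST, with 2 biological replicates. A note of 3 males goes with each replicate, without saying whether they were pooled, and both carry the same donor entry. Separate animals are therefore not stated, and the difference between the replicates may be technical. Bulk tissue mixes cell types, so that a site open in few cells and a site weakly open in many cannot be told apart.

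A peak is a narrow site of dense cleavage, a hotspot a wider domain of raised cleavage, and a footprint a short protected stretch inside open DNA. Elements within 1 kb of any annotated transcription start site (TSS) of a gene were taken as its promoter elements. Those farther than 1 kb from every TSS of any annotated gene were taken as distal. Elements within 1 kb of another gene's TSS only were counted as neither. An element of replicate 1 that a replicate 2 element overlapped by at least 1 bp was counted as found in both. The main peaks numbered 39608 and 45915 in replicates 1 and 2, the hotspots 76696 and 91160 and the footprints 170738 and 227460. By the steps in the deposited densities, replicate 2 was sequenced 1.64 times as deeply. Of marker genes, 4 of 8 for excitatory cortical neurons (among them Emx1, Neurod2 and Camk2a) and 5 of 10 for interneurons carried a promoter peak found in both. So did 3 of 10 for glia, microglia and vessels and 3 of 9 for neighbouring brain regions. Over all protein-coding genes the share was 54.8%. Slc17a7, Tbr1, Fezf2, Gad1 and Vip were among the cortical markers without one, and Drd1, Rorb and Tcf7l2 were those of the neighbouring regions with one, of which Rorb is also used by cortical layer 4 neurons.

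Distal peaks found in both libraries numbered 6, in the spans of Htr1b, Htr2a, Htr3a, Htr4 and Htr6. At 3 of them, letters of the CTCF motif lie inside a footprint of both libraries. At Htr1b and Htr3a these include the motif core. At Htr2a they are only adjoining letters, chosen after the footprints were seen. CTCF is the zinc finger protein that binds chromatin boundaries and loop anchors. The sequences of these 3 sites are shown with their protected bases, followed by the site in an intron of Tmco4 next to Htr6, which has a shared footprint of another sequence. Each is the mm10 reference (RefSeq GRCm38.p6), read 5′ to 3′ on the strand of the gene, and capitals mark the bases that lie in footprints of both libraries.
Htr1b downstream, chr9:81627021-81627200, minus strand: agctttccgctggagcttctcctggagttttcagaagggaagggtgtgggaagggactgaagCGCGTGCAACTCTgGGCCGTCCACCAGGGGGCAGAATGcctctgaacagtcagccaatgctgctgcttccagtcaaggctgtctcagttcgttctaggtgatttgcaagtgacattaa
Htr2a intron, chr14:74643441-74643600, plus strand: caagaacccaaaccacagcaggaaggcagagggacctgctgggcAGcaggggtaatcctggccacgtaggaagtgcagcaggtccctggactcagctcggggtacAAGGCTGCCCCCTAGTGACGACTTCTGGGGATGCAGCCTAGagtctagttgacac
Htr3a downstream, chr9:48894181-48894360, minus strand: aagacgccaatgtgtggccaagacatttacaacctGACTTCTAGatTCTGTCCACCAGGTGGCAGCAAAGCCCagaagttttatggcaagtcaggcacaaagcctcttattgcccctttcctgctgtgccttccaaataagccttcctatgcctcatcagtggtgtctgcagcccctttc
Htr6 side, Tmco4 intron, chr4:139054697-139054828, minus strand: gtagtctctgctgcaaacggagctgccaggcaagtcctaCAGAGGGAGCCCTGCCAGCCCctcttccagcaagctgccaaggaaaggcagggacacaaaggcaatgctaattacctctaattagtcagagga

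Letters were searched on both strands. The CTCF core CCACNAGG occurs at bases 83 to 90 of the printed Htr1b site and at bases 52 to 59 of the Htr3a site, and 9.35% of the 14455 distal peaks found in both libraries across the genome hold it in windows of 180 bp. The adjoining letters AGNNGGCAG, chosen after the footprints were seen, overlap the core at both sites (bases 88 to 96 and 57 to 65) and occur in the Htr2a site at bases 110 to 118, where the printed strand reads CTGCCCCCT. They occur in 17.7% of all such windows. Of the 6 shared distal peaks in the serotonin gene spans, 2 held the core and 3 the adjoining letters. The E-box form CAGNTG was in 2 of the 6, at Htr3a and Htr4, against 54.1% of all windows, and the NFI letters TTGGCA in 3 of the 6, at Htr4 and at both Htr6 sites, against 21.0%. The E-box in the Htr3a site (bases 56 to 61) overlaps its CTCF letters. A match describes letters only and does not show that a factor was bound.

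A second pair of sequences is shown because each is an upstream site that was a main peak of replicate 2 alone and that more permissive lists give in both libraries. For Htr1a, capitals mark letters of the motif of REST, a repressor of neuronal genes. For Slc6a4, capitals mark the footprints of replicate 2, the only library with footprints there.
Htr1a upstream, chr13:105442685-105442914, plus strand: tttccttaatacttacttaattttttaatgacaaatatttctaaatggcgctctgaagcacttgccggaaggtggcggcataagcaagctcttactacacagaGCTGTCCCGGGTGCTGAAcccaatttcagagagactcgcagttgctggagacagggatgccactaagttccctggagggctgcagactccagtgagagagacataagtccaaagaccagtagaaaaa
Slc6a4 upstream, chr11:76997393-76997591, plus strand: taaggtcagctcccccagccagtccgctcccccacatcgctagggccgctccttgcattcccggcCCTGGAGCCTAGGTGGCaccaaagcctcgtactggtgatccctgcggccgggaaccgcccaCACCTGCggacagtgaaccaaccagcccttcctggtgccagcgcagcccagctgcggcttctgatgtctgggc

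The Htr1a site holds both parts of the REST motif on the reverse strand, GGACAGC at bases 104 to 110 and TTCAGCACC at bases 113 to 121, with 2 bases between them. The parts were searched in all sites, and the joined form was searched after they were seen. Of 50261 windows of 230 bp centred on the smaller read-derived peak list of replicate 1, a more permissive list, 15 (0.0298%) held the joined form. The parts alone were in 6.31% (GGACAGC) and 0.380% (TTCAGCACC) of these windows. None of the 14455 shared distal windows held the joined form, and 2 of the 20150 promoter windows of 300 bp did (0.00993%). A 7 bp footprint of replicate 2 (chr13:105442793-105442799) crosses the middle of the match, and replicate 1 had no footprint in this site.

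Fewer of the 10 genes had a main peak than a hotspot at the promoter. A promoter peak was present for 4 genes in replicate 1 (Htr3a, Htr4, Htr5a and Htr7), where 57.7% of all protein-coding genes had one, and for 6 in replicate 2 (these 4, Htr1a and Htr1b), where 56.9% had one. Peaks that overlapped between the libraries were found for 3 genes, Htr3a, Htr4 and Htr5a, against 54.8% of all genes. Htr7 had a promoter peak in each library at different places. Promoter hotspots, by contrast, were found in both libraries for 9 of the 10 genes, all but Htr6, against 63.2% of all genes. With at least 50% of both hotspots in the overlap the count was 7, against 61.1% of all genes. With only hotspots whose highest −log10 FDR was 3 or more it was also 7, against 58.5%.

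The contrast between peaks and hotspots also depends on the threshold for a peak. In the looser list, peaks hold a base with a false discovery rate (FDR) under 0.05 in place of 0.001. With it, 7 genes passed in both libraries, against 61% of all genes: Htr1a, Htr1b and Slc6a4 joined, and the Htr7 peaks overlapped. At Slc6a4 only the replicate 1 peak reaches within 1 kb of the TSS, and the replicate 2 peak that overlaps it ends just short of that. With the smaller read-derived list the count was 6 (Htr1a, Htr1b, Htr3a, Htr4, Htr5a and Htr7), against 57.8%. With at least 50% of both peaks in the overlap it was 1, against 50.5% of all genes, and with an FDR of 0.0001 or lower it was 1, against 52.8%.

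Distal elements were found about as often as, or more often than, over all genes. A distal peak in both libraries was present for 5 of the 10 genes, against 34.3% of all genes, and a distal hotspot for 7, against 58.9%. The spans were of similar size, with a median of 64.1 kb for these genes and 57.4 kb for all. The median of shared distal peaks per 100 kb of span was 0.235 for these genes and 0 for all genes. These 2 medians restate the shares of genes with any such peak. With 5 of the 10 genes at 0, the former is the midpoint of 0 and the 0.471 of Htr4. The median of shared distal hotspots per 100 kb was 1.39 for these genes and 1.38 for all.

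Footprints were found in both libraries in the promoters of 3 genes (Htr1b, Htr3a and Htr7), against 57% of all genes, and in the distal DNA of 5 (Htr1b, Htr2a, Htr3a, Htr5a and Htr6), against 44.9%. Promoters held 25 footprints in replicate 1 and 38 in replicate 2, of which 6 of replicate 1 were found again: 2 at Htr1b, 3 at Htr3a and 1 at Htr7. Distal DNA held 30 and 58, of which 16 of replicate 1 were found again, 8 of them in the span of Htr6. Per gene, the median of promoter footprints was 2.5 in replicate 1 and 0 found again, against 4 and 2 over all protein-coding genes. For distal footprints these medians were 2 and 0.5, against 1 and 0. The share of footprints found again over the whole genome was not counted. With replicate 1 alone, 6 genes had a promoter footprint and 8 a distal one, against 61.6% and 54.7% of all genes, and with replicate 2 alone these were 6 and 9, against 62.0% and 63.5%. Promoter footprints were present in each library, with no overlap required, for 6 genes, against 59.6% of all genes. Those of Htr1a, Htr4 and Htr5a did not overlap between the libraries.

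**Figure D1:**
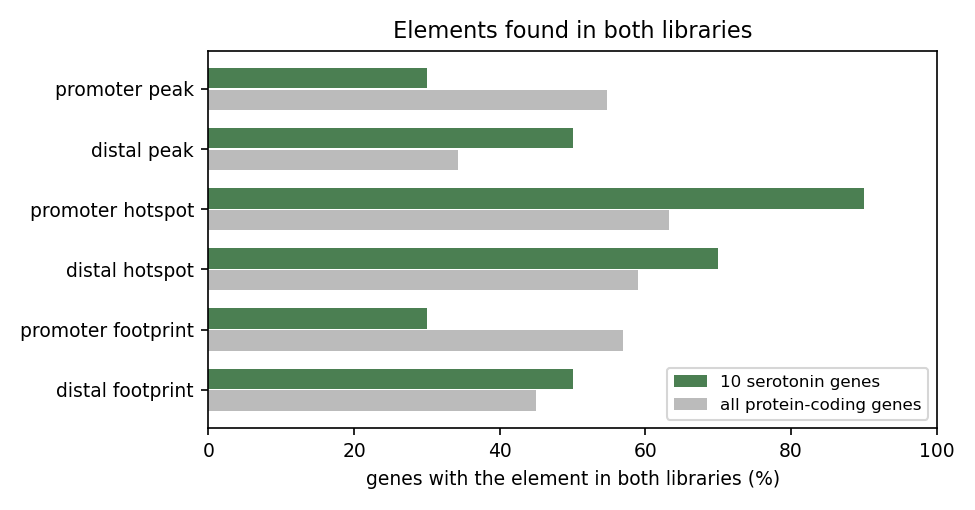
Share of genes with each kind of element in both libraries (percent, horizontal axis), for the 10 serotonin genes (green) and all 21938 protein-coding genes (grey). The serotonin genes were at 3 of 10 for promoter peaks, where all genes were at 54.8%, and at 9 of 10 for promoter hotspots, where all genes were at 63.2%.

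Most promoter peaks of these genes ranked low within the main lists. The strength of a peak is the authors' cleavage density, and its percentile is its rank within the peak list of the same library, since densities of libraries of unequal depth were not compared. The 6 promoter peaks of replicate 1 had a median percentile of 14.4 (3.00 to 58.6) and the 14 of replicate 2 one of 11.9 (4.91 to 72.6). In each library 1 promoter peak, that of Htr3a, lay above the median of its list. These ranks depend on the list: in the looser one, which adds weaker peaks, Htr3a was at 76.5 and 85.3, an Htr1b promoter peak was at 50.3 and 55.3, and Htr5a reached 47.6 and 55.8. Distal peaks had a median percentile of 54.6 over 7 peaks in replicate 1 (7.32 to 72.5) and 29.7 over 12 peaks in replicate 2 (8.64 to 70.0), with 5 and 4 of them above the list median.

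**Figure D2:**
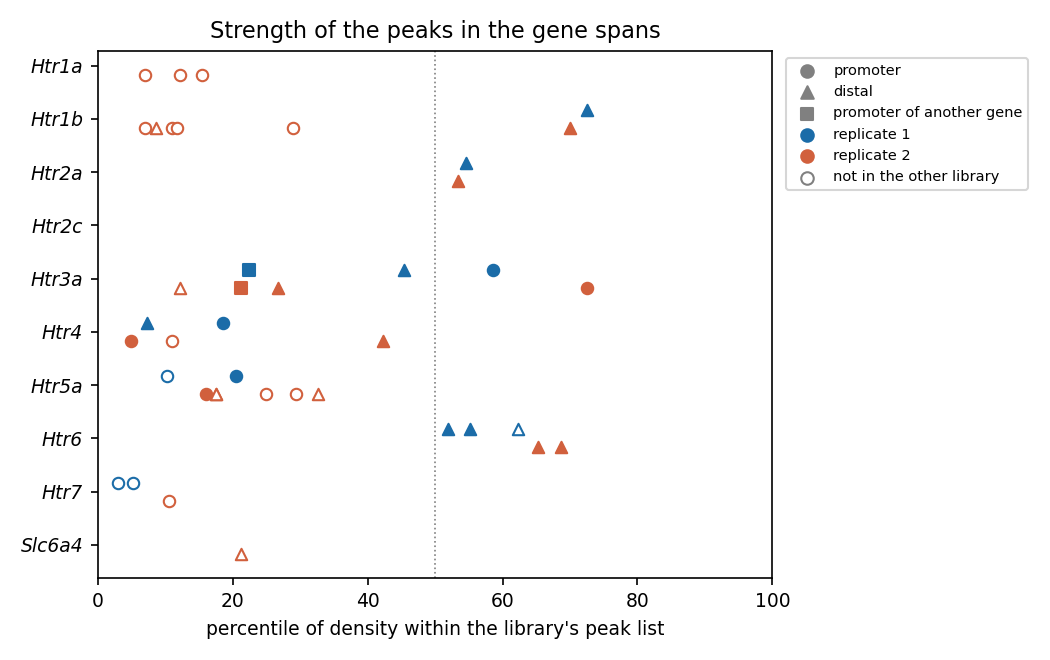
Percentile of cleavage density within the peak list of its library (horizontal axis) for every main peak in the span of each gene (vertical axis), with circles for promoter, triangles for distal and squares for another gene's promoter, in blue for replicate 1 and orange for replicate 2. Filled symbols were found in both libraries. Htr3a has the only promoter peaks to the right of the list median (dotted line at 50), and Htr2c has no peak.

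The per-base FDR shows how far weak cleavage spread over each promoter. Bases with an FDR under 0.05 covered a median of 19.5% of the promoter window in replicate 1 and 22.7% in replicate 2 for these genes, and 9.82% and 9.13% for all protein-coding genes. Counted in bases the medians were close, at 585 and 482.5 for these genes and 542 and 477 for all. The windows of these genes were shorter, with a median of 2339.5 bp against 4002 bp, since a window grows with the number of separate TSSs. In each library 35.7% of all genes had no such base. Among the serotonin genes Htr6 had none in either library, and Htr2a and Slc6a4 had none in replicate 2.

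**Figure D3:**
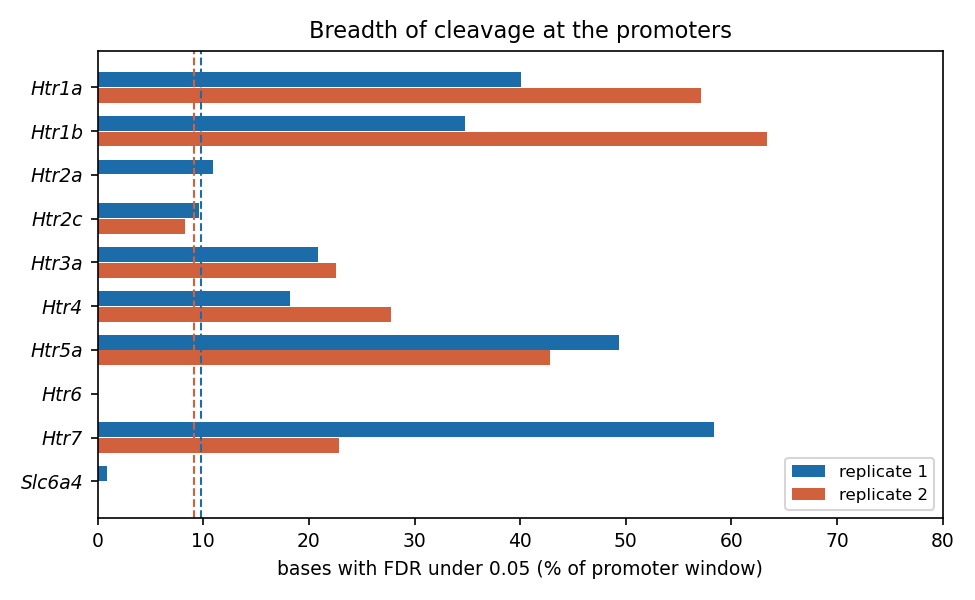
Bases with an FDR under 0.05 as a percentage of each gene's promoter window (horizontal axis), in blue for replicate 1 and orange for replicate 2. Dashed lines mark the medians of all protein-coding genes, 9.82% and 9.13%. Htr1a, Htr1b and Htr5a exceed 30% in both libraries, Htr7 reaches 58.3% in replicate 1 and 22.8% in replicate 2, and Htr6 has none.

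Htr1a (chr13:105443639-105448122, plus strand) encodes the Gi/o-coupled receptor that opens potassium channels on cortical neurons and serves as the autoreceptor on raphe cell bodies. Its promoter was broad and shallow. FDR under 0.05 covered 801 bases (40.0% of the window) in replicate 1 and 1142 bases (57.1%) in replicate 2. As a share of the window, which is 2001 bp for its 1 TSS, this was more than in 89.6% and 96.0% of all genes. The lowest FDR was 0.00146 in replicate 1, which misses the main threshold of 0.001, and 3.44e-06 in replicate 2. Only replicate 2 therefore listed main promoter peaks, centred at −813, 592 and 1082 bp from the TSS (negative values are upstream), at the percentiles 7.02, 15.5 and 12.1.

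The upstream Htr1a site, the one with the REST letters, was nonetheless seen in both libraries. It lay in a hotspot of 367 bp in replicate 1 and 336 bp in replicate 2, with highest −log10 FDR values of 4.98 and 3.65. The per-base FDR is a separate measure, with lowest values at this site of 0.00313 in replicate 1 and 0.000102 in replicate 2. The hotspot and per-base measures thus ordered the replicates differently here. In the smaller read-derived lists it was a peak of both libraries, at the percentiles 7.35 and 5.07. The widest hotspot of the gene, over its coding exon, was 1596 bp wide in replicate 1 and 1375 bp in replicate 2, with −log10 FDR values of 5.13 and 4.81. No distal peak was present in the 44.5 kb span, which holds no other gene.

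Htr1b (chr9:81628291-81633828, minus strand) encodes the Gi/o-coupled receptor found on axon terminals, where it lowers transmitter release. Its promoter window was covered over 1118 bases (34.8%) in replicate 1 and 2037 bases (63.4%) in replicate 2. The lowest FDR was 0.00119 in replicate 1, again just above the threshold, and 1.79e-08 in replicate 2. Replicate 2 listed 4 promoter peaks, of which the strongest, in the coding exon (chr9:81631841-81632280), was at percentile 28.9. A promoter hotspot 2963 bp wide in replicate 1, the widest of any of the 10 genes in that library, reached a −log10 FDR of 8.45, and replicate 2 divided the same DNA into hotspots, the widest of 1290 bp at 7.27. The antisense gene D430036J16Rik starts inside Htr1b, and DNase-seq reads cannot assign the open DNA there to either gene.

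The peak with the highest mean percentile of the group lay beyond the 3′ end of Htr1b, 6717 bp from the first TSS, and is the first of the printed sites. Its density was 2.56 in replicate 1 and 1.53 in replicate 2, at the percentiles 72.5 and 70.0 (mean 71.3 ± 1.75, SD, n = 2). The hotspot around it had −log10 FDR values of 24.6 and 17.2, higher than in 90.9% and 90.5% of the hotspots of each library. A footprint of 41 bp in replicate 2 covered the CTCF letters, where replicate 1 had footprints of 24 and 13 bp, and the CTCF core lies in the former. The nearest annotated TSS of Htr1b was 5415 bp from the replicate 1 peak.

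Htr5a (chr5:27842149-27855088, plus strand) encodes a further Gi/o-coupled receptor. Its promoter was covered over 987 bases (49.3%) in replicate 1 and 856 bases (42.8%) in replicate 2, with lowest FDR values of 1.83e-05 and 1.27e-05. A promoter peak centred at −288 bp from the TSS was found in both libraries, with densities of 0.888 and 0.566 at the percentiles 20.5 and 16.01 (18.2 ± 3.14, SD, n = 2), and its peaks overlapped by 81 bp. Replicate 2 had stronger promoter peaks at the TSS, at percentile 29.4, and in the coding exon, at 24.99. The coding exon also held a peak in replicate 1, at percentile 10.3, which did not overlap that of replicate 2.

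Downstream of Htr5a, replicate 2 alone listed 3 distal main peaks, centred 31249, 31552 and 32238 bp past the TSS, at the percentiles 17.6, 32.6 and 17.6. Hotspots of both libraries covered the same DNA. Those of replicate 1 were 359 and 882 bp wide with −log10 FDR values of 3.70 and 3.20, and those of replicate 2 were 894 and 682 bp wide with 9.16 and 5.97. The smaller read-derived lists gave 2 peaks there in both libraries, at the percentiles 3.28 and 18.7 for the first and 2.04 and 35.4 for the second. The distal span held 4 footprints in replicate 1 and 17 in replicate 2, of which 1 was found in both.

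Htr2a (chr14:74640840-74709494, plus strand) encodes the Gq-coupled receptor of cortical pyramidal neurons through which psychedelic drugs act. No main peak lay at its promoter in either library. FDR under 0.05 covered 219 bases (10.9%) in replicate 1 and none in replicate 2, and the promoter hotspots reached −log10 FDR values of 2.45 and 1.51. The open site of the gene was in its intron, 2671 bp past the TSS, the second of the printed sequences. There the density was 1.61 in replicate 1 and 1.07 in replicate 2, at the percentiles 54.6 and 53.4 (54.0 ± 0.913, SD, n = 2).

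The intronic site of Htr2a was protected over nearly the same bases in each library, by a footprint of 42 bp in replicate 1 and 41 bp in replicate 2. The hotspot around it was 537 and 538 bp wide with −log10 FDR values of 8.64 and 9.03. A weaker intronic hotspot, centred 18860 bp past the TSS in replicate 1, was found in both libraries as well, with values of 2.72 and 2.44.

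Htr2c (chrX:146962513-147197277, plus strand) encodes the other cortical Gq-coupled receptor, known for RNA editing of its transcript, and has the longest span of the group at 274.8 kb, with the microRNA genes Mir764, Mir1912, Mir1264, Mir1298 and Mir448 among those inside it. It had no main peak and no footprint in either library. Bases under an FDR of 0.05 at its promoter numbered 241 in replicate 1 and 207 in replicate 2 (9.60% and 8.24% of the window), with lowest values of 0.0130 and 0.0137. Weak promoter hotspots were found in both libraries at 2 places, with −log10 FDR values of 1.80 and 2.96 around the first TSS and 3.02 and 2.34 further into the gene, where the hotspots were 547 and 367 bp wide. Its distal hotspots, 2 in each library, did not overlap. The tissue came from males, with a single X chromosome, and the part of this in the low signal was not tested.

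Htr3a (chr9:48899213-48911099, minus strand) encodes the channel subunit and marks a class of cortical interneurons. Its promoter differed in shape from those of Htr1a and Htr1b: it was narrower, with 433 bases (20.8%) and 470 bases (22.6%) under an FDR of 0.05, and strong, with lowest values of 1.73e-10 and 3.49e-19. The covered share of its window was still more than in 71.5% and 75.4% of all genes. The peak over the TSS (chr9:48910921-48911180 where the libraries overlap) had densities of 1.75 and 1.64, at the percentiles 58.6 and 72.6 (65.6 ± 9.85, SD, n = 2). The hotspot was 600 bp wide in replicate 1 and 604 bp in replicate 2, with −log10 FDR values of 11.1 and 21.2. It held 3 footprints in both libraries, 30 and 27 bp, 8 and 22 bp, and 24 and 29 bp wide, and the second of these overlaps the NFI letters TTGGCA. The promoter sequence is poor in CpG, with an observed to expected ratio of 0.198, lower than in most genes (23.5% of genes were below it).

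Htr3a also had a shared distal peak 16828 bp past its first TSS, downstream of the gene, the third of the printed sites. Its densities were 1.35 and 0.698, at the percentiles 45.4 and 26.7 (36.1 ± 13.2, SD, n = 2), and the hotspot had −log10 FDR values of 8.65 and 6.30. Footprints of 31 and 27 bp covered the CTCF letters, and smaller footprints of 9 and 10 bp lay beside them in both libraries. A further shared peak downstream of Htr3a, at the percentiles 22.4 and 21.2, lay within 1 kb of the TSS of the gene Gm32335 and was counted with neither class.

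Htr4 (chr18:62324204-62496577, plus strand) encodes a Gs-coupled receptor. Its promoter peak, centred at −213 bp from the first TSS in replicate 1, had densities of 0.856 and 0.369, at the percentiles 18.6 and 4.91 (11.7 ± 9.66, SD, n = 2), and the peak of replicate 2 was 61 bp wide. Replicate 2 listed 2 promoter peaks, and the strongest of each library had a mean percentile of 14.8. At the shared peak the lowest FDR values were 4.44e-09 in replicate 1 and 0.000350 in replicate 2. Over the promoter window they were 4.44e-09 and 2.10e-05, so that here the shallower library gave the lower FDR. So it did at Htr2a, Htr2c, Htr7 and Slc6a4, while replicate 2 gave the lower value at Htr1a, Htr1b, Htr3a and Htr5a. The promoter hotspots of Htr4 were 854 and 1267 bp wide with −log10 FDR values of 9.12 and 4.31. The intronic peak 130258 bp past the TSS went the other way, at the percentiles 7.32 and 42.2, with hotspot −log10 FDR values of 4.80 and 8.59. Neither difference between the replicates can be tested with 1 value in each.

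Htr6 (chr4:139061108-139075570, minus strand) encodes a Gs-coupled receptor with little sign of an open promoter here. No base of its promoter window was under an FDR of 0.05, and the promoter hotspots, 154 bp at a −log10 FDR of 1.32 in replicate 1 and 174 bp at 1.39 in replicate 2, were at different places. Its span nonetheless held more shared distal elements than that of any of the other genes: 2 peaks, 4 hotspots and 8 footprints. Both peaks lie in neighbouring genes. The peak in Tmco4, 20805 bp past the first TSS of Htr6, had densities of 1.53 and 1.36 at the percentiles 51.9 and 65.2 and a footprint of 22 bp in each library, shown in capitals in the fourth printed sequence. The peak in Nbl1, at −7665 bp, had densities of 1.64 and 1.48 at the percentiles 55.2 and 68.7, in hotspots of 600 and 583 bp with −log10 FDR values of 6.64 and 7.73. A second site in Nbl1, at −10685 bp, was a main peak of replicate 1 alone (percentile 62.3) and a smaller read-derived peak of both, at 69.9 and 65.7. Inside an intron of Htr6 itself, 7031 bp past the TSS, the same lists gave a peak of both libraries at the percentiles 48.6 and 62.9, with hotspot −log10 FDR values of 3.83 and 5.56, where the main lists gave none.

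Htr7 (chr19:35958734-36057507, minus strand), the remaining Gs-coupled receptor gene, had the most CpG-rich promoter of the group, with a GC content of 60.1% and an observed to expected ratio of 0.835, above 94.5% of all genes. FDR under 0.05 covered 1265 bases (58.3%) in replicate 1 and 495 bases (22.8%) in replicate 2, with lowest values of 4.12e-05 and 0.000230. Its promoter peaks were near the foot of each list, at the percentiles 5.25 and 3.00 in replicate 1 and 10.5 in replicate 2. The promoter hotspots were 1415 and 879 bp wide with −log10 FDR values of 4.80 and 4.70. No distal peak was found in its 138.8 kb span.

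Slc6a4 (chr11:76998603-77032340, plus strand) is used by serotonergic neurons, whose cell bodies lie in the raphe, and for a time after birth by thalamic neurons that project to the cortex. No peak of the main list lay within 1 kb of any of its TSSs. The nearest was a peak of 51 bp in replicate 2, centred at −1124 bp from the first TSS, at percentile 21.2. In the looser list a peak was found there in both libraries, the Slc6a4 sequence printed above, with densities of 0.682 and 0.632, lowest FDR values of 0.00143 and 0.000567, and hotspots of 506 and 304 bp with −log10 FDR values of 3.02 and 3.57. Of the promoter window itself, 51 bases (0.848%) in replicate 1 and none in replicate 2 were under an FDR of 0.05.

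**Figure D4:**
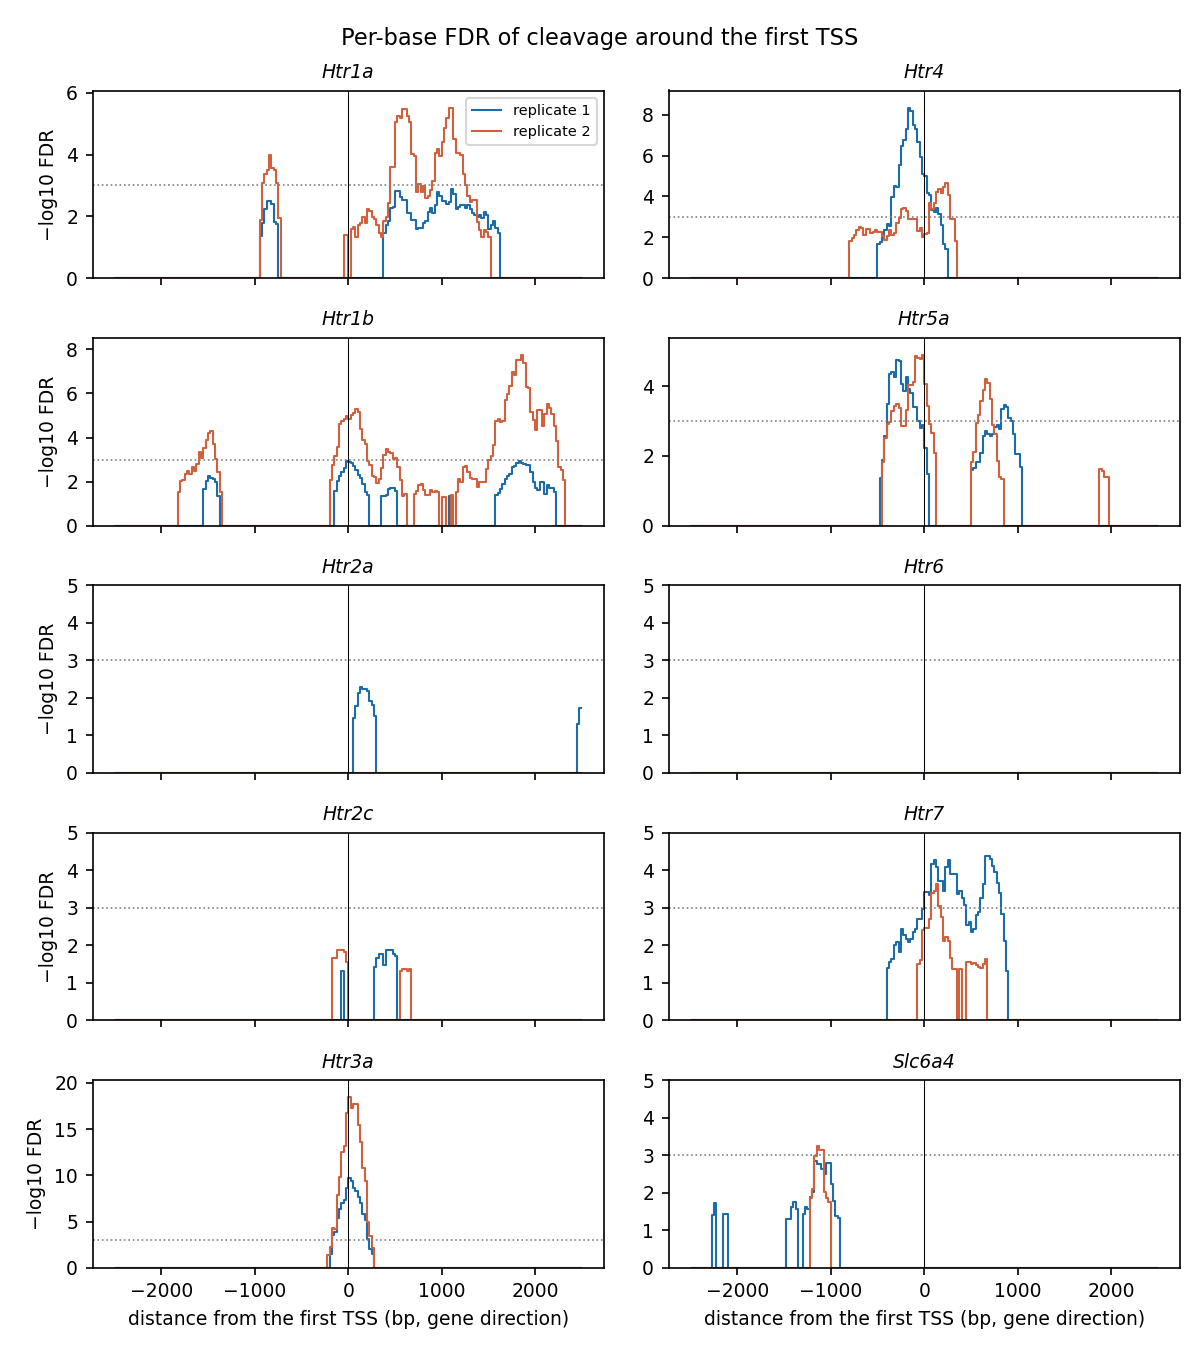
Highest −log10 FDR per 25 bp bin (vertical axis, scaled per gene) against distance from the first TSS in the direction of the gene (bp, horizontal axis), in blue for replicate 1 and orange for replicate 2. Bases are listed only under an FDR of 0.05 and are drawn at 0 otherwise, and the dotted line marks an FDR of 0.001. Htr3a shows 1 narrow summit in both libraries, and Htr6 shows none. Htr1a and Htr1b show several summits at like positions in both, those of replicate 1 staying below the line and the highest of replicate 2 lying above it.

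Promoter sequence was searched for the same motifs in the RefSeq table of windows from 250 bp before to 50 bp after each start, which matched 8 of the 10 genes with 9 windows. Htr3a and Htr4 had no window and are not part of these motif counts. The SP/KLF letters GGGCGG were in windows of 4 genes (Htr1a, Htr2a, Htr6 and Slc6a4), against 47.8% of the 20150 windows of all genes. The E-box CAGNTG was in 3 (Htr5a, Htr6 and Slc6a4), against 48.3%, the CTCF core in 1 (Htr1b), against 5.14%, and TATAAA in none, against 12.1%. GC content over the promoter windows of the 10 genes had a median of 53.7%, and 51.2% over all genes. The CpG ratio had medians of 0.464 and 0.474.

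The other genes of the pathway were given the same count. Over all protein-coding genes the share with a promoter peak in both was 54.8%, with a promoter hotspot 63.2% and with a promoter footprint 57%. None of the 5 other serotonin receptor genes (Htr1d, Htr1f, Htr2b, Htr3b and Htr5b) had a promoter peak in both libraries, and Htr5b had one in replicate 2. Of 9 genes for serotonin synthesis, storage, breakdown and low-affinity uptake, 4 had one: Tph2, the tryptophan hydroxylase of neurons, Gch1, which makes its cofactor, Maoa, which breaks serotonin down, and Slc29a4, a low-affinity transporter. Ddc, Slc18a2, Maob, Slc22a3 and Tph1 had none in both.

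Among regulators of serotonergic neurons, whose cell bodies are not in the cortex, Gata3 had a promoter peak in both libraries, and Fev, Lmx1b, Gata2, Foxa2 and Nkx2-2 did not. Of 14 genes for the proteins that the receptors act through, 12 had a promoter peak in both libraries: the G-protein subunit genes Gnai1, Gnai2, Gnao1, Gnaq and Gnas, the phospholipase and calcium channel genes Plcb1 and Itpr1, the potassium channel genes Kcnj3 and Kcnj6, and Adcy5, Prkaca and Arrb2. Adcy1 and S100a10 had none in both. All 14 had a promoter hotspot in both libraries, and 13 a promoter footprint.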

How the data were processed

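All lists were made per library and deposited by the authors. Peaks and per-base FDR came from filtered alignments to mm10, and hotspots and the read-derived peaks from sequencing reads, per the text lists deposited with the samples. The aligner and callers were not given in the sources used here. Each peak's value is its cleavage density, a signal that the authors normalised for read depth. Hotspots carry their highest −log10 FDR, per the file headers. This value and the per-base FDR are separate measures that can differ at the same site, as at Htr1a and Htr6. The p-value column of the deposited per-base tracks lists FDR values under 0.05, and the footprint lists a constant 0.01 in the p-value column. Another 2 deposited footprint lists of replicate 2 give positions only. The main list was taken as that with a base under 0.001 in every peak, a threshold inferred from the values.

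Genes and TSSs came from GENCODE vM21 and sequence from RefSeq GRCm38.p6. No interval ran past a chromosome end. A gene's span is its body plus 20 kb each side, and a promoter window the bases within 1 kb of any of its TSSs. Percentiles rank a density, or a hotspot's value, within its own list. Counts are given beside those over all protein-coding genes, with no test, since there is 1 group. Densities were whole multiples of a step (tolerance 0.05 of a step), whose ratio gave the relative depth. Total reads are not given in the files. The members and gene lists were chosen with earlier results of these data known. By rule all 10 members were named, with every promoter peak found in both libraries, each gene's strongest shared distal peak and the widest hotspot of its own. Other elements were chosen after their values were seen. Some genes of the comparison lists are not reported here. Printed sequences overlap no annotated exon, and none is shown for Htr4. Alternatives changed the overlap, promoter window, flank, TSS set, peak list and library. Computations used Python 3.11.15, numpy 2.4.6, pandas 2.3.3, samtools 1.23.1 and matplotlib 3.10.9, and the counting and motif search were tested on simulated data. Reads of an F1 cross were set against the C57BL/6J reference, and the effect on mapping was not examined.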

Additional observations from a re-analysis of the deposited data

Results flagged for a closer look

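The 2 further footprint lists of replicate 2, which give positions only and have no counterpart in replicate 1, entered no comparison. Their footprints were not counted over all protein-coding genes, so whether the counts below are high or low is not known. The larger, of 288599 footprints, placed 125 in the spans of the 10 serotonin genes, 43 of them at promoters. It listed 4 footprints in the span of Htr2c, 3 of them at the promoter, where the compared lists held none, 3 at the promoter of Htr6 and 26 in the span of Htr5a. The smaller, of 120126 footprints, placed 43 in the spans, 16 of them at promoters, with 12 in the span of Htr3a and none in those of Htr2c and Slc6a4.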

How the results depend on the processing

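The 3 genes whose promoter peaks overlapped between libraries became 1 with 50% of both peaks in the overlap, 7 with the looser list, 1 with the stricter, 6 with the smaller and 8 with the larger read-derived list, and 4 to 6 with either replicate left out. The 6 shared distal peaks became 12, 11 and 14 with the looser, smaller read-derived and larger read-derived lists, and 7 to 12 with a replicate left out. The 3 genes with a shared promoter footprint became 1 inside main peaks only, 6 with overlap not required (chosen after seeing the data) and 6 with either replicate left out, the 5 with a distal one 8 to 9, and the 22 shared footprints 13 inside main peaks and 55 to 96. A count with a replicate left out is that of the remaining library, which needs no match. Counts of genes with shared distal peaks, promoter hotspots and distal hotspots stayed within 1.5 times their main value under each alternative run. No paired analysis was possible because there is 1 group. Absolute depth is unknown, replicate 2 is the deeper library, and a site listed in 1 library may have missed the threshold in the other, as at Htr1a and Htr1b.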
